A study of Homo sapiens with 8 samples.

Results

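Interferon-responsive genes are genes whose transcription rises when a cell senses interferon or viral nucleic acid. A list of 39 such genes was followed in 2 cholangiocarcinoma (bile duct cancer) cell lines, SNU1079 and SSP25. The genes were chosen by name, and all 39 were found among the 56269 genes listed for both lines. Expression was given as TPM, a unit that divides reads by transcript length and scales each library to a common total, so that levels can be compared between genes as well as between libraries. The list kept only genes that reached 1 TPM in 2 or more of the 8 RNA-seq libraries, as did 16060 genes in all. That all 39 passed this filter on low values was therefore fixed by how the list was made.

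Every library came from cells exposed for 48 h to 1 of 4 treatments. Vehicle cells received 0.01% DMSO, BETp cells received the BET degrader ARV825 at 40 nM, mTORi cells received AZD8055 at 50 nM, and BETp + mTORi cells received both drugs, at concentrations the labels do not give. ARV825 directs BET bromodomain proteins, which read acetylated chromatin and help transcription proceed, to cereblon for degradation. AZD8055 blocks the kinase mTOR in both of its complexes. There was 1 library for each line and treatment, both lines were labelled wildtype with liver as the tissue, and each line is a single established tumor line, so the 2 lines had to serve as the replicates of a treatment. The study's own sequencing reported IDH1 and ARID1A mutations in SNU1079, so that label does not mean free of mutations. The series asked how BETp and mTORi act together in these cells.

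In the textbook pathway, type I interferons bind the IFNAR receptor, the kinases JAK1 and TYK2 phosphorylate STAT proteins such as STAT2, and STAT2 and IRF9 are part of ISGF3, a complex that binds the interferon-stimulated response element (ISRE) before its target genes. Many targets block viral replication, and several members, such as IRF7, IRF9, STAT2 and the RNA sensors, feed back into the pathway. Tumor cells can keep part of this program switched on with no added interferon, and no interferon treatment is named in the labels.

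Libraries of 1 line were alike in overall makeup. All 8 listed 13308 to 14526 genes at 1 TPM or more, and log2 values correlated at 0.975 to 0.986 between libraries of 1 line and at 0.789 to 0.807 between the lines. Mitochondrial transcripts took 14.4% to 19.2% of the TPM in SNU1079 and 5.99% to 10.1% in SSP25, in both lines lowest with vehicle and highest with BETp + mTORi. All 4 biliary keratins tested were high in both lines, although EPCAM, an epithelial surface marker, was at 59.7 to 101 TPM in SNU1079 and 0.9 to 1.74 TPM in SSP25. Of 5 leukocyte markers, CD14 alone reached 1 TPM, with 32.4, 27.9, 29.9 and 13.9 TPM in SSP25 after vehicle, BETp, mTORi and BETp + mTORi, while PTPRC, CD3E and LYZ stayed at 0.24 TPM or less. Summed over the leukocyte list, SSP25 libraries had 14.2 to 32.5 TPM and SNU1079 libraries 0 to 1.07 TPM. No plasmacytoid dendritic cell marker of 3 reached 1 TPM. Of the fibroblast and endothelial markers, COL1A1 was at 1003, 546, 599 and 272 TPM in SNU1079, COL3A1, PDGFRB and CDH5 reached at most 1.07, 1.84 and 2.19 TPM, and the fibroblast list summed to 1.34 to 4.26 TPM in SSP25 against 274 to 1004 TPM in SNU1079. TTR was the sole hepatocyte marker to reach 1 TPM.

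The sequences just before the genes were examined for the element that ISGF3 reads. RefSeq (GRCh38.p14) supplied the 250 bases before the annotated start for 23 of the 39 members, and the ISRE core, searched as GAAANNGAAA on both strands, was in 15 of the 23 (65.2%), against 3.02% of 35116 promoters of the same length. The GAS element, named for its response to interferon gamma, searched as TTCNNNGAA, was in 8 of the 23 (34.8%) against 6.57%. Such matches describe letters and are not measured binding sites. The promoters of 5 members with different behavior in these cells, chosen with their values known, are shown 5′ to 3′ on the strand of the gene, with the ISRE core in capitals (written TTTCNNTTTC where it lies on the opposite strand).
IFIT1: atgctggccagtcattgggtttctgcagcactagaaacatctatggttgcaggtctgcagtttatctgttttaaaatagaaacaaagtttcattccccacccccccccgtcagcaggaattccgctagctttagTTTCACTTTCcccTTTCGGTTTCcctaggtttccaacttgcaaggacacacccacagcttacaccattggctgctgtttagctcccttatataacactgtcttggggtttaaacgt
ISG15: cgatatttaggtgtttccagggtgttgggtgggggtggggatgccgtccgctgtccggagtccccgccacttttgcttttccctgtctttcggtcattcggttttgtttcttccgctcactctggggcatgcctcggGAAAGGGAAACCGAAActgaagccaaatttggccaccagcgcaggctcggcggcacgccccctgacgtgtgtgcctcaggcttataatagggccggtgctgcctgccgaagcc
IFI44L: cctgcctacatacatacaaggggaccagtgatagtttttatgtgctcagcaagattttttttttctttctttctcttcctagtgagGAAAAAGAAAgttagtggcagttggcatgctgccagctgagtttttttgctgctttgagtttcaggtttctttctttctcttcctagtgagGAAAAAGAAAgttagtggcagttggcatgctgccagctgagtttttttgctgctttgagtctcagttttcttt
BST2: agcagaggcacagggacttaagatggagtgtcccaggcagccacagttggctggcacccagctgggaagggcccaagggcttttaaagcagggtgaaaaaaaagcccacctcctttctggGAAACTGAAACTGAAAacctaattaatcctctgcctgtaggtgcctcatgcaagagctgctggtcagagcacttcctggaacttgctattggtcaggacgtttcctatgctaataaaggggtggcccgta
EPSTI1: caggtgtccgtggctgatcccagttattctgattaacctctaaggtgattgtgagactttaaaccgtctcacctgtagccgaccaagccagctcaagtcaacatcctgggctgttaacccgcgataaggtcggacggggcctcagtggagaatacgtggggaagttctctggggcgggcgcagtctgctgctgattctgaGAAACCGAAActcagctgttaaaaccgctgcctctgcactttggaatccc
The IFIT1 sequence is chr10:89392373-89392622 (plus strand), and its matches start 116 and 103 bases before the gene. For ISG15 it is chr1:1013247-1013496 (plus strand), with matches at 113 and 107 bases that overlap in 1 run. IFI44L has chr1:78620198-78620447 (plus strand), where the same run of letters occurs at 164 and 73 bases. BST2 has chr19:17405631-17405880 (minus strand) with overlapping matches at 130 and 124 bases, and EPSTI1 has chr13:42992242-42992491 (minus strand) with 1 match at 50 bases. In BST2 and EPSTI1 a GAS match shared letters with an ISRE match. An ISRE core thus stood before a gene that was low in SSP25 (BST2), a gene listed at 0 in SNU1079 (EPSTI1) and genes that were higher with BETp in one line and lower in the other (IFIT1, ISG15).

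Genes that make, receive or relay the interferon signal came from a list of 41 other pathway genes, of which 31 passed the filter. All 9 interferon ligand genes on it were at 0.68 TPM or less in every library, and IFNE, an epithelial type I interferon, was the highest of them. The receptor was present in both lines, with IFNAR1 at 15.9 to 22.5 TPM in SNU1079 and 15.4 to 23.6 TPM in SSP25, and IFNAR2 at 16.9 to 22.8 and 12.01 to 16.03 TPM. The type II receptor chains were higher in SSP25, IFNGR1 at 69.9 to 132 TPM against 20.9 to 34.4 TPM and IFNGR2 at 49.98 to 70.1 against 24.7 to 30.5 TPM. IFNLR1, the type III receptor chain, was at 1.04 to 2.35 TPM in SNU1079 and 0.37 to 0.88 TPM in SSP25, and its partner IL10RB at 17.7 to 26.4 and 31.6 to 41.4 TPM. All further values by library are in the order vehicle, BETp, mTORi and BETp + mTORi. Named after the values were seen, 3 relay genes were low in SNU1079. TMEM173, which encodes the adaptor STING, was at 0 to 1.4 TPM in SNU1079 and 10.8 to 30.6 TPM in SSP25, MB21D1, which encodes the sensor cGAS and passed the filter through SSP25 alone, at 0 to 0.13 and 6.0 to 12.9 TPM, and the kinase gene IKBKE at 0.36 to 1.3 and 11.5 to 31.2 TPM. TBK1 and IRF3, the kinase and factor that act after STING, did not pass the test (0.00463 ± 0.10 and 0.03 ± 0.11 log2 between the lines, limma adjusted p = 0.969 and 0.838). In limma, 24 of the 31 pathway genes differed between the lines, 16 of them higher and 8 lower in SSP25, where 74.0% of all genes differed, a share close to that of the list. Among the most abundant others were JAK1, ADAR, STAT3 and IRF3, at mean levels of 110.1, 92.5, 71.0 and 61.4 TPM over the 8 libraries.

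Levels of the members ran from 0 to 996 TPM. LGALS3BP, which encodes a secreted glycoprotein that binds galectin-3, was the most abundant, at 503, 520.1, 389.6 and 438 TPM in SNU1079 and 873, 830.0, 996 and 823 TPM in SSP25. Below it came ISG15, UBE2L6, IRF1 and BST2, with means over the 8 libraries of 103, 70.8, 59.8 and 57.5 TPM. At the other end, OAS2, OASL, MX2, HERC5, SAMD9, SAMD9L, XAF1 and EPSTI1 stayed under 1 TPM in all 4 SNU1079 libraries, and RSAD2 and CMPK2 stayed under 1 TPM in all 4 SSP25 libraries. Thus 31 members reached 1 TPM in SNU1079, 37 in SSP25 and 29 in both. The 8 and the 2 passed the filter only through the line where they were higher, so their difference between lines was fixed by the filter, and changes in the line where they were low could hardly be seen. Counts over the 29 are therefore given beside those over the 39, with limma fitted again on the 13094 genes that reached 1 TPM in both lines, an alternative chosen after seeing the data. The 29 include IFI44L, which reached 1 TPM in SNU1079 with vehicle alone. It too passed the filter through SSP25, so its line difference carries no test.

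**Figure D1:**
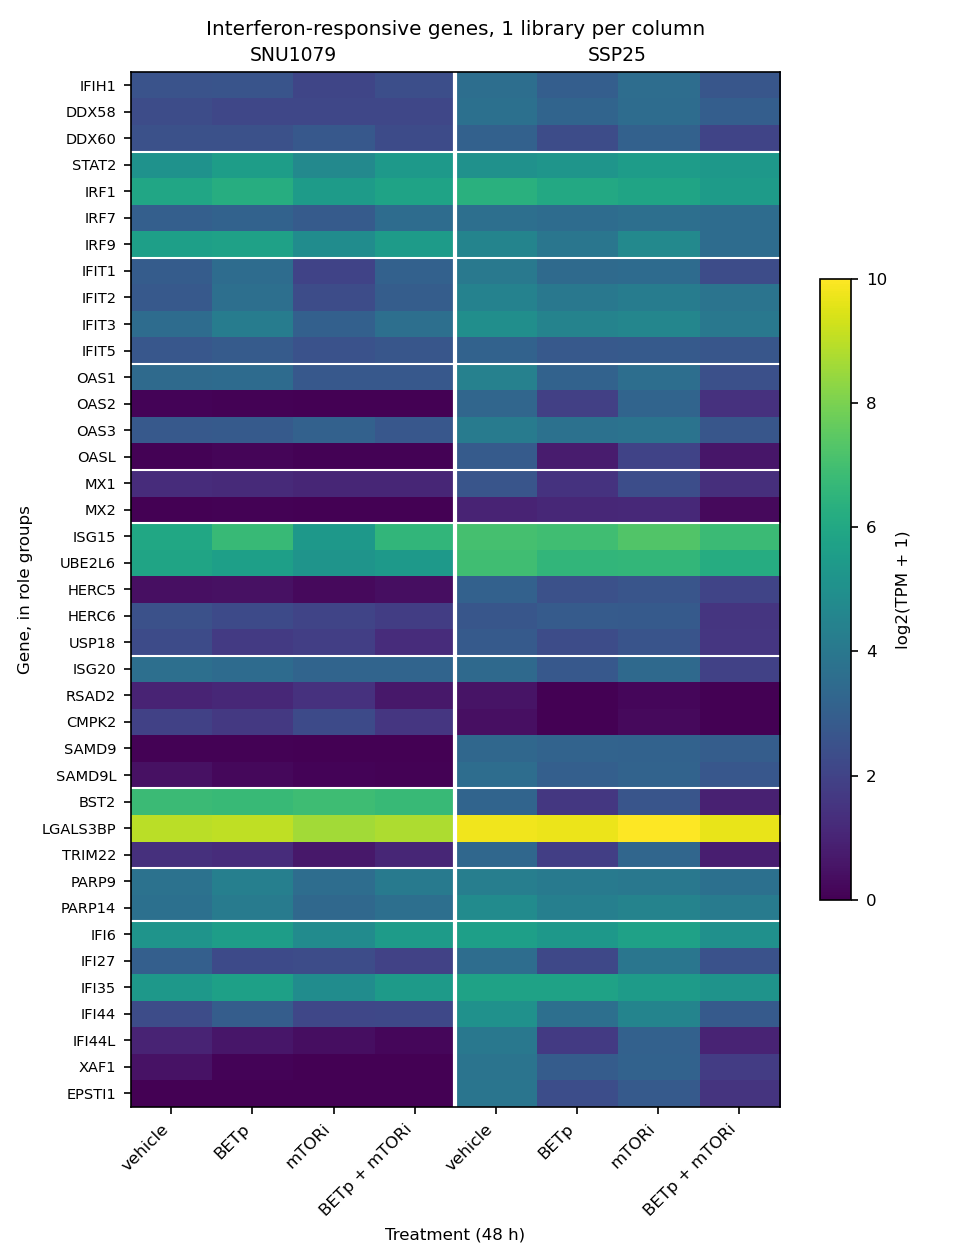
Level of each of the 39 genes as log2(TPM + 1), by color, in the 8 libraries (columns, SNU1079 at left and SSP25 at right), with white lines between role groups. LGALS3BP is the brightest row, BST2 is bright in SNU1079 alone, and the 8 genes under 1 TPM in SNU1079 appear as dark cells at left and lighter cells at right.

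Of the 29 members present in both lines, 16 were higher in SSP25 than in SNU1079 in limma, where 35.6% of the genes present in both were called higher, and 2 were lower, where 33.5% were. The 16 include IFI44L. The median difference of the 29 was 0.54, against 0.00461 over the genes present in both. Over the 39, 24 were called higher (35.8% of all genes) and 4 lower (38.2%), with a median of 0.73 against -0.05 over all genes, and these counts include the 8 and the 2 that had to differ. All log2 values are differences of log2(TPM + 1), a scale on which changes of genes near 0 TPM look smaller than they are. All 4 SSP25 libraries lay above all 4 SNU1079 libraries for 18 members (30.8% of all genes) and below them for 4 (32.6%), but for 10 (30.3%) and 2 (27.8%) of the 29, so that the share lying above was then near that of other genes. These tests compare 4 libraries of 1 line with 4 of another and say nothing about bile duct tumors in general. Nothing in the labels says that libraries came from separate cultures, so p-values measure the spread between these libraries alone. In models without a term for line and drug, that spread includes any drug response that differs between the lines. A gene left uncalled there is thus not shown to be unchanged. Each line has a table of its own, and although TPM is set within a library, differences in handling between the tables cannot be told apart from the line.

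Among the 29, the 5 furthest above were IFI44L (1.92 ± 0.38, estimate ± SE, given without a test because it passed the filter through SSP25), IFI44 (1.62 ± 0.37, limma adjusted p = 0.00552), TRIM22 (1.24 ± 0.45, 0.0373), IFIT2 (1.19 ± 0.25, 0.00375) and DDX58 (1.18 ± 0.13, 0.000152), over all 16060 genes. The call of TRIM22 was lost in 6 of 12 alternatives, with adjusted p up to 0.126, among them those without the vehicle or mTORi library of either line. Over the 39, the 5 furthest above were SAMD9 (3.12 ± 0.13), SAMD9L (2.92 ± 0.15), XAF1 (2.78 ± 0.26), EPSTI1 (2.64 ± 0.35) and OAS2 (2.43 ± 0.33), given without a test because each entered through SSP25 alone. SAMD9 and SAMD9L are neighboring genes for cytoplasmic antiviral proteins, and SAMD9 was at 0.04, 0.04, 0.01 and 0 TPM in SNU1079 and 9.15, 8.01, 7.89 and 6.66 TPM in SSP25. SAMD9L was at 0.36, 0.15, 0.07 and 0.04 TPM in SNU1079 and 10.96, 7.11, 8.01 and 5.52 TPM in SSP25. XAF1, a proapoptotic gene, was at 0.41, 0.06, 0 and 0 TPM in SNU1079 and 13.6, 6.53, 7.9 and 2.43 TPM in SSP25. All 3 were at or near 0 in every SNU1079 library, and EPSTI1 was listed at 0 in all 4 of them but at 13.6, 4.14, 6.12 and 1.82 TPM in SSP25. The 2 of the 29 that were lower in SSP25 were BST2 (-4.71 ± 0.33, limma adjusted p = 1.4e-05) and IRF9 (-1.26 ± 0.28, 0.0051). BST2 encodes tetherin, which holds budding virions at the cell surface, and was at 113, 106, 118 and 106 TPM in SNU1079 and 8.24, 2.1, 5.2 and 0.89 TPM in SSP25. CMPK2 and RSAD2 are neighboring genes, RSAD2 encoding viperin and CMPK2 a mitochondrial nucleotide kinase, and both were low throughout, at 2.0 to 3.8 and 0.56 to 1.68 TPM in SNU1079 and 0 to 0.32 and 0 to 0.43 TPM in SSP25.

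With BETp, most members were lower in SSP25, while in SNU1079 they were divided, with several interferon effectors higher. In SSP25, 35 of the 39 members were lower with BETp than with vehicle (63.0% of all genes were), with a median of -0.50 against -0.09 over all genes, and 20 were lower by 0.5 or more (10.2%). In SNU1079, 23 members were higher, 14 were lower and 2 were equal (42.1% of all genes were higher), with a median of 0.04 against -0.03, and 6 were higher by 0.5 or more (5.34%). BETp was also compared in the presence of mTORi, by setting BETp + mTORi against mTORi, which is another condition and not a repeat. In SSP25 all 39 members were then lower (56.8% of all genes), with a median of -0.89 against -0.05, and 24 by 0.5 or more (12.1%). In SNU1079, 20 were then higher, 13 lower and 6 equal (37.3% of all genes were higher), with a median of 0.02 against -0.08, and 10 were higher by 0.5 or more (6.18%). Over the 29 members present in both lines, 26 and 29 were lower in SSP25 (65.5% and 57.9% of genes present in both), with medians of -0.47 and -0.89, while 19 and again 19 were higher in SNU1079 (44.1% and 38.2%), with medians of 0.0606 and 0.22. Each of these counts sets 1 library against 1 other, with no replicate check.

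Taking both contrasts, 16 members were higher with BETp in SNU1079 and lower in SSP25 each time, against 5.66% of all genes (41.0% of the members). These were the RNA sensor IFIH1, the factors IRF1, IRF7 and IRF9, all 4 IFIT genes, OAS1, ISG15, LGALS3BP, PARP9, PARP14, IFI6, IFI44 and, at 0.38 TPM or less in SNU1079 and so of no weight there, HERC5. Of the 29 present in both lines, 15 did so, against 6.04% of genes present in both. No member showed the reverse of this pattern (4.53%). Some SNU1079 rises among the 16 were close to 0, as for OAS1 (0.02 and 0.03 log2). Another 8 (20.5%) were lower in both lines each time, a share near that of all genes (23.2%). They were DDX58, USP18, ISG20, CMPK2, SAMD9L, BST2, IFI27 and IFI44L. CMPK2 was at 0.32 TPM or less in SSP25, so its changes have little weight there. The same holds in SNU1079 for SAMD9L (0.36 TPM or less) and IFI44L (1.0 TPM or less). Of the 29 present in both lines, 6 were lower in both each time, against 25.7% of genes present in both. No member was higher in both (8.88%).

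The difference itself was tested in a model with a term for line and drug. No member passed after Benjamini-Hochberg adjustment in limma, where 1 gene of 16060 did (0.00623%), and the lowest adjusted p of a member was 0.123, for BST2. Without adjustment, 28 of the 39 had p under 0.05 for a lower response in SSP25, against 7.19% of all genes, and none for a higher one (5.17%). Since 8 of the 39 had next to no level to change in SNU1079, the test was repeated on the genes present in both lines. There 23 of the 29 had an unadjusted p under 0.05 for a lower response in SSP25 (6.48%), all 29 estimates were below 0 with a median of -0.83, and BST2 was called (-1.53 ± 0.15, limma adjusted p = 0.0334), 1 member where 0.137% of those genes were called lower. The estimate over all 39 was below 0 for 38 members, with a median of -0.80 against -0.02 over all genes. It was furthest from 0 for TRIM22 (-2.14 ± 0.39, limma adjusted p = 0.207), IFI44L (-1.90 ± 0.22, 0.162) and IFI44 (-1.87 ± 0.26, 0.184), and CMPK2 was the exception (0.14 ± 0.25, 0.861). For CMPK2 the sign turned with a pseudocount of 0.1 and after quantile normalization.

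**Figure D2:**
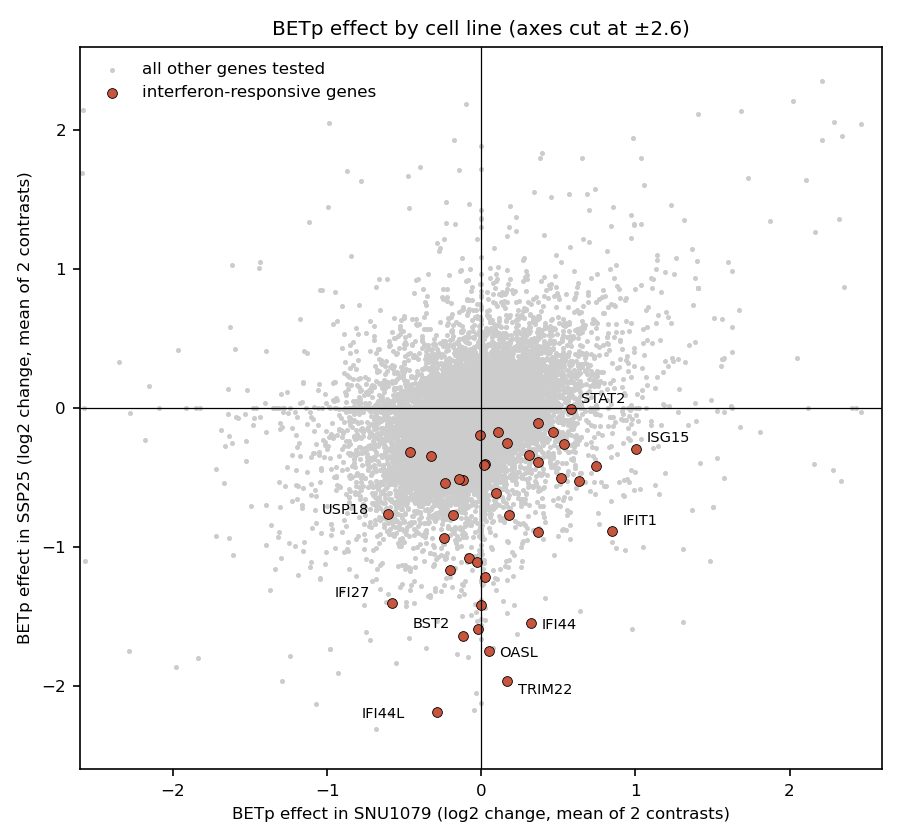
BETp effect in SNU1079 (x axis) and SSP25 (y axis) as log2 change, averaged over BETp against vehicle and BETp + mTORi against mTORi, with 1 point per gene. The interferon-responsive genes (red) lie mostly below the horizontal zero line and on both sides of the vertical one, with ISG15 and IFIT1 at lower right and IFI44L at the bottom.

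Role groups behaved unevenly. Among the transcription factors, STAT2, a subunit of ISGF3, was at 32.9, 46.1, 24.8 and 40.7 TPM in SNU1079 and 32.3, 36.6, 44.97 and 39.3 TPM in SSP25. It was higher with BETp in SNU1079 both times (0.47 and 0.69 log2) and mixed in SSP25 (0.17 and -0.19). IRF9, its DNA-binding partner, was at 48.6, 52.4, 28.1 and 44.1 TPM in SNU1079 and 21.97, 14.01, 25.3 and 10.6 TPM in SSP25. The lines did not overlap for IRF9, and the SSP25 libraries with BETp were the lowest of all 8. IRF1, an interferon-induced factor, was at 59.6, 74.6, 44.3 and 54.9 TPM in SNU1079 and 79.8, 64.7, 57.01 and 43.4 TPM in SSP25, and IRF7, a driver of interferon gene transcription, stayed within 6.37 to 10.5 TPM in SNU1079 and 10.7 to 11.6 TPM in SSP25.

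IFIT proteins bind foreign RNA and block its translation. IFIT1 was at 6.53, 10.5, 3.07 and 7.69 TPM in SNU1079 and 15.4, 9.95, 10.4 and 4.0 TPM in SSP25. IFIT2 was at 5.88, 11.5, 4.04 and 6.74 TPM in SNU1079 and 20.7, 14.9, 17.6 and 13.2 TPM in SSP25, and IFIT3, which stabilizes IFIT1, was at 10.6, 17.6, 7.27 and 11.5 TPM in SNU1079 and 29.5, 21.2, 23.1 and 14.96 TPM in SSP25. In SNU1079 each of the 3 was highest with BETp and lowest with mTORi, whereas in SSP25 each was highest with vehicle and lowest with BETp + mTORi. IFIT5 stayed within 4.72 to 6.35 TPM in SNU1079 and 5.35 to 7.8 TPM in SSP25. The difference between the lines in the BETp effect was -1.74 ± 0.29 for IFIT1, -1.16 ± 0.17 for IFIT2 and -1.16 ± 0.14 for IFIT3 (limma adjusted p = 0.191, 0.184 and 0.173).

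The 3 RNA sensor and helicase genes among the members were lower in SNU1079 than in SSP25 under vehicle, whereas the related DHX58 and EIF2AK2 of the pathway list were higher there (9.27 against 4.67 TPM and 32.8 against 22.5 TPM). IFIH1, which encodes MDA5, was at 4.83, 5.08, 3.3 and 4.3 TPM in SNU1079 and 11.4, 6.88, 10.99 and 5.45 TPM in SSP25. DDX58, which encodes RIG-I, was at 4.06, 3.32, 3.43 and 3.4 TPM in SNU1079 and 12.03, 8.27, 10.7 and 7.02 TPM in SSP25, and the related helicase gene DDX60 was at 4.62, 4.65, 5.78 and 3.81 TPM in SNU1079 and 7.71, 3.98, 7.7 and 3.14 TPM in SSP25. All 3 were lower with BETp in SSP25 in both contrasts, while in SNU1079 the 6 changes ran from -0.50 to 0.30.

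OAS enzymes make 2-5A, the signal that turns on RNase L. OAS1 was at 10, 10.2, 5.68 and 5.8 TPM in SNU1079 and 20.2, 7.87, 11.3 and 4.44 TPM in SSP25. OAS3 was at 5.96, 6.11, 7.68 and 5.61 TPM in SNU1079 and 16.7, 12.2, 13.1 and 5.46 TPM in SSP25, and OAS2 was at 0.06, 0.03, 0 and 0 TPM in SNU1079 and 8.83, 2.7, 8.29 and 1.71 TPM in SSP25. OAS2 was thus all but absent from SNU1079. OASL, a family member without that activity, was at 6.23, 0.7, 3.07 and 0.53 TPM in SSP25 and at 0.10 TPM or less in SNU1079. In SSP25 the 4 genes had medians of -1.33 for BETp against vehicle and -1.29 for BETp + mTORi against mTORi, and each was lower both times. In SNU1079, OAS1 differed by 0.02 and 0.03 and OAS3 by 0.03 and -0.39, and OAS2 and OASL were too low there for a change to be seen. The dynamin-like GTPases followed, with MX1 at 1.39, 1.31, 1.1 and 1.1 TPM in SNU1079 and 5.22, 1.74, 4.15 and 1.52 TPM in SSP25 and MX2 at 0.03 TPM or less in SNU1079 and 1.02, 1.16, 1.25 and 0.2 TPM in SSP25. MX2, unlike MX1, was not lower with BETp alone.

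ISG15 is a ubiquitin-like modifier that is joined to proteins by the conjugating enzyme UBE2L6 and the ligase HERC5, a relative of HERC6, and is removed by USP18. ISG15 was at 61.8, 106, 39.6 and 94.7 TPM in SNU1079 and 132, 120.2, 154 and 112 TPM in SSP25. In SNU1079 it was 0.77 higher with BETp than with vehicle and 1.24 higher when BETp was added to mTORi, the latter being the largest such change of any member, and in SSP25 the same changes were -0.13 and -0.45. UBE2L6 was at 56.1, 49.1, 34.9 and 40.96 TPM in SNU1079 and 123, 94.4, 97.01 and 71.2 TPM in SSP25, and HERC6 at 4.55, 3.76, 3.14 and 2.48 TPM in SNU1079 and 5.4, 6.28, 6.06 and 1.93 TPM in SSP25. HERC5 was at 0.18 to 0.38 TPM in SNU1079 and 3.13 to 7.65 TPM in SSP25. USP18, which also restrains signaling from the IFNAR receptor, was at 3.93, 2.25, 2.66 and 1.41 TPM in SNU1079 and 6.03, 3.97, 5.05 and 1.98 TPM in SSP25, and was thus lower with BETp in both lines, unlike ISG15.

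Of the genes for proteins that act on nucleotides or RNA, the exonuclease gene ISG20 was at 11.4, 10.4, 8.45 and 8.21 TPM in SNU1079 and 9.8, 5.73, 9.68 and 2.82 TPM in SSP25, and its SSP25 library with both drugs was the lowest. Among surface, secreted and nuclear restriction factors, BST2 stayed within 106 to 118 TPM in SNU1079, while in SSP25 it was 0.255 times the vehicle level with BETp and 0.108 times with BETp + mTORi. TRIM22, a nuclear factor that restrains viral transcription, was at 1.62, 1.42, 0.55 and 1.12 TPM in SNU1079 and 9.25, 2.61, 8.76 and 0.81 TPM in SSP25. LGALS3BP, the most abundant member, differed by -0.09 to 0.19 from vehicle in SSP25 and by -0.37 to 0.05 in SNU1079.

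PARP9 and PARP14 are neighboring genes of the ADP-ribosylation family. PARP9 was at 12.6, 18.96, 10.8 and 15.9 TPM in SNU1079 and 18.2, 15.8, 15.2 and 11.9 TPM in SSP25. PARP14 was at 11.9, 16.7, 9.33 and 11.6 TPM in SNU1079 and 27.02, 19.2, 21.3 and 16.98 TPM in SSP25. Both were higher with BETp in SNU1079 and lower in SSP25. Among the IFI genes, whose roles are less settled, IFI35 was at 39.3, 50.1, 28.2 and 42.8 TPM in SNU1079 and 53.1, 53.1, 43.9 and 34.2 TPM in SSP25. IFI6, which encodes a mitochondrial survival protein, was at 34.9, 46.1, 27.5 and 43.4 TPM in SNU1079 and 49.5, 39.6, 51.5 and 31.5 TPM in SSP25. In SNU1079 both were highest with BETp and lowest with mTORi. IFI44 was at 3.95, 6.63, 3.43 and 3.5 TPM in SNU1079 and 31.9, 11.5, 22.1 and 6.11 TPM in SSP25. Its neighbor IFI44L was at 1.0, 0.52, 0.28 and 0.13 TPM in SNU1079 and 14.99, 2.25, 7.54 and 1.02 TPM in SSP25. IFI44L was lower with every drug treatment in both lines, although at 1.0 TPM or less in SNU1079. IFI44 was higher with BETp alone in SNU1079 (0.62 log2) but nearly unchanged when BETp was added to mTORi (0.02). A difference between these adjoining genes in SNU1079 thus rests on low values and 1 pair of libraries. IFI27 was at 7.08, 3.69, 4.03 and 2.9 TPM in SNU1079 and 10.9, 3.47, 14.2 and 4.79 TPM in SSP25, with its lowest SSP25 levels in the libraries with BETp.

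**Figure D3:**
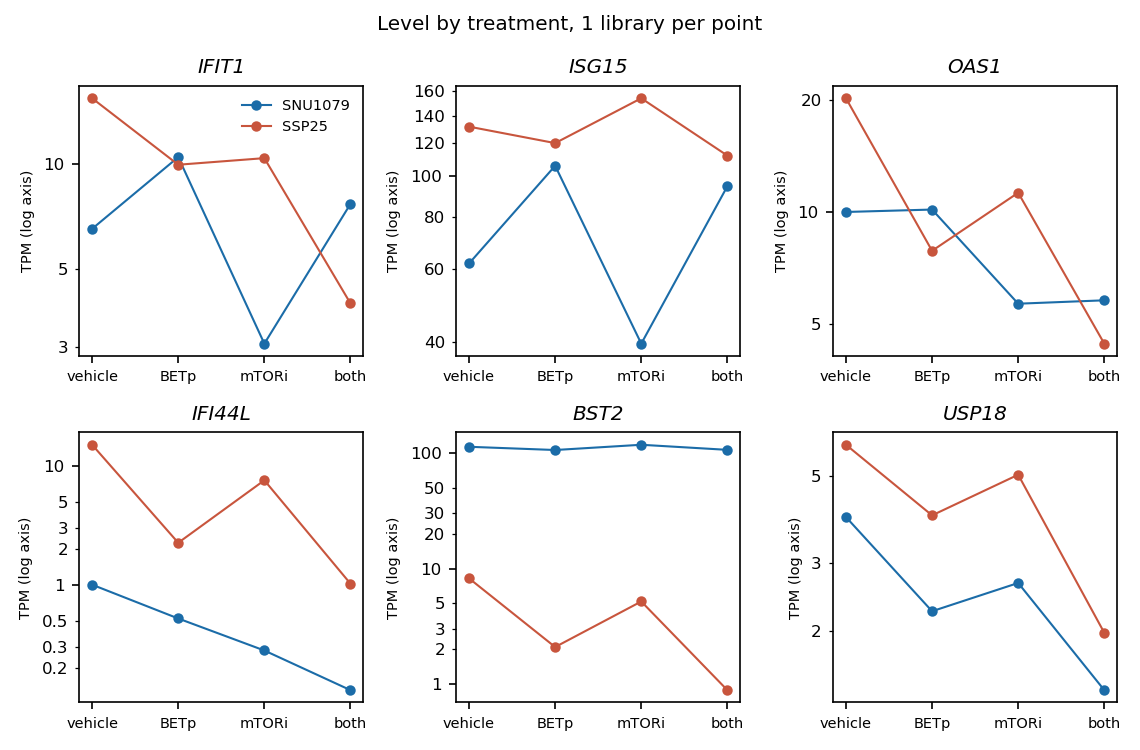
TPM (log axis, scaled for each gene) of 6 members by treatment in SNU1079 (blue) and SSP25 (red), with 1 library per point and lines joining the libraries of a cell line. IFIT1 and ISG15 peak with BETp in SNU1079 but not in SSP25, BST2 is flat in SNU1079 and lowest with both drugs in SSP25, and USP18 has the same order of treatments in both lines.

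With the lines averaged, 1 of the 39 members passed the test for BETp, in the model that uses all 8 libraries. In fits that average the lines, a response that differs between them counts as error. No member was called for BETp against vehicle in limma, where 0.00623% of all genes were called lower and 0 higher, and 3 were lower at an unadjusted p under 0.05 (6.50%). The largest differences were -1.35 ± 0.54 for IFI44L, -1.10 ± 0.35 for IFI27 and -0.997 ± 0.55 for OASL on the lower side, and 0.32 ± 0.25 for STAT2, 0.32 ± 0.39 for ISG15 and 0.21 ± 0.35 for IFIT2 on the higher side (limma adjusted p from 0.497 to 0.876). OASL was at 0.10 TPM or less in SNU1079, so its estimate averages 0.09 there with -2.09 in SSP25. Without the SNU1079 BETp library the estimates for ISG15 and IFIT2 were -0.13 and -0.36, and without the SNU1079 vehicle library that for IFIT2 was -0.11. With all 8 libraries, BETp present against absent gave a median of -0.32 (-0.08 over all genes), which was -0.17 without the SSP25 library with both drugs, -0.20 without the SSP25 mTORi library and -0.24 to -0.41 without any other, and 1 member, USP18, fell, by 0.68 ± 0.13 (limma adjusted p = 0.0446), where 1.36% of all genes were called lower. That call was lost under each of 12 alternatives, with adjusted p from 0.0539 to 1 and estimates from -0.89 to -0.59, and was kept on the genes present in both lines (0.0397). At an unadjusted p under 0.05, 14 members were lower (17.2%). IFI27, named after its value was seen, came next in p, at -0.99 ± 0.24 (limma adjusted p = 0.0723). For BETp added to mTORi no member was called (0.0125% of all genes were, all of them higher), and 5 were lower at an unadjusted p under 0.05 (9.91%). IFI44L (-1.13 ± 0.54), TRIM22 (-0.99 ± 0.63) and BST2 (-0.93 ± 0.46) were the lowest there, and ISG15 (0.39 ± 0.39), IRF7 (0.27 ± 0.20) and STAT2 (0.25 ± 0.25) the highest (limma adjusted p from 0.415 to 0.684). Without the SNU1079 mTORi library ISG15 and STAT2 were at -0.33 and -0.23, and without the SNU1079 library with both drugs ISG15 and IRF7 were at -0.02.

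With mTORi, most members were lower in both lines. In SNU1079, 31 of 39 were lower with mTORi than with vehicle (63.5% of all genes), with a median of -0.35 against -0.10, and 8 by 0.5 or more (10.4%). In SSP25, 30 were lower (63.4%), with a median of -0.25 against -0.11, and again 8 by 0.5 or more (10.4%). Across both contrasts that add mTORi, 22 members were lower in both lines each time, against 26.2% of all genes, among them IFIH1, IRF1, all 4 IFIT genes, OAS1, MX1, PARP9, PARP14, TRIM22, IFI44 and IFI44L. Of the 29 present in both lines, 17 did so, against 30.0% of genes present in both. With mTORi alone, 26 of the 29 were lower in SNU1079 (65.7%). In SSP25 it was 21 of the 29 (67.4%), a share near that of other genes. When mTORi was added to BETp, 35 members were lower in SNU1079 (68.4%), with a median of -0.20 against -0.14. Only 4 were lower there by 0.5 or more (11.3%). In SSP25, 34 were lower (60.9%), 15 of them by 0.5 or more (9.89%), with a median of -0.38 against -0.07. STAT2 and IFI27 were lower in SNU1079 and higher in SSP25 each time (7.43%), and BST2 was the reverse (4.79%), although its SNU1079 changes were only 0.0575 and 0.00457.

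No member passed the test for mTORi. For mTORi against vehicle 0.0125% of all genes were called in limma, and 1 member was lower at an unadjusted p under 0.05 (8.75%). The lowest were IFI44L (-0.77 ± 0.54), OAS1 (-0.75 ± 0.36) and IFIT1 (-0.71 ± 0.51), and the highest, all near 0, were DDX60 (0.13 ± 0.25), CMPK2 (0.09 ± 0.22) and MX2 (0.08 ± 0.29), with limma adjusted p from 0.517 to 0.945. CMPK2 was below 0 with a pseudocount of 0.1. A change could hardly be seen for MX2 in SNU1079 (0.03 TPM or less) or for CMPK2 in SSP25 (0.32 TPM or less). The median over the members was 0.02 in place of -0.25 without the SNU1079 mTORi library, -0.0534 without the SSP25 vehicle library, and -0.50 and -0.59 without the SNU1079 vehicle and the SSP25 mTORi library. With mTORi present against absent, the median was -0.29 (-0.11 over all genes), or -0.13, -0.17 and -0.19 without the SSP25 library with both drugs, the SNU1079 BETp library and the SSP25 vehicle library, 0 members were called (1.05% of all genes were), and 7 were lower at an unadjusted p under 0.05 (19.3%), OAS1 (-0.73 ± 0.24) and IFIT1 (-0.74 ± 0.34) being furthest from 0 (limma adjusted p = 0.129 and 0.249). For mTORi added to BETp, no gene of the 16060 was called (1840 had an unadjusted p under 0.05), and 3 members were lower at that level (9.74%). HERC6 (-0.88 ± 0.26), IFI44 (-0.79 ± 0.52) and IFIT1 (-0.77 ± 0.51) were the lowest, and IRF7 (0.20 ± 0.20) and IFI27 (0.05 ± 0.35) were above 0 (limma adjusted p from 0.368 to 0.965). IFIT1 was at 0.06 without the SSP25 library with both drugs.

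Whether the mTORi effect differed between the lines was tested in the same way as for BETp. No gene was called in limma (2282 had an unadjusted p under 0.05), and 3 members had such a p in each direction (8.45% of all genes higher and 5.76% lower in SSP25). EPSTI1 (-0.95 ± 0.21, with SNU1079 at 0 throughout), OAS3 (-0.79 ± 0.30) and BST2 (-0.68 ± 0.13) had the lowest estimates and IFI27 (0.84 ± 0.22), STAT2 (0.57 ± 0.17) and ISG15 (0.46 ± 0.20) the highest (limma adjusted p from 0.238 to 0.388). The median was -0.10, against 0.03 over all genes. It was -0.0184 with a pseudocount of 0.1, -0.0467 on the genes present in both lines, and -0.0235 to -0.0209 without any of the 4 libraries with BETp.

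SSP25 cells with both drugs had the lowest member levels of that line for most of the genes. There, 38 of the 39 members were lower than with vehicle (66.7% of all genes), STAT2 being the exception at 0.28, and 32 were lower by 0.5 or more (21.1%). The median was -0.94, against -0.17 over all genes, and on the scale of TPM itself 21 of 37 members with a level above 0 in both libraries were at or under 0.5 times the vehicle level. IFI44L was at 0.0680 times the vehicle level, BST2 at 0.108, OASL at 0.0851 and TRIM22 at 0.0876 times. In SNU1079, 27 members were lower and 10 higher (69.1% of all genes were lower), 5 by 0.5 or more (19.1%), with a median of -0.12 against -0.18, and of the 29 present in both lines 20 were lower (71.7%). After quantile normalization, which moved the median of all genes in this contrast to 0, 18 SNU1079 members were lower and 19 higher, but 37 SSP25 members were still lower. As bulk libraries were used, fewer expressing cells and less RNA per cell cannot be told apart. This contrast shares its vehicle libraries with both single-drug contrasts. The mitochondrial share, COL1A1 and CD14 moved with the same treatments, as given above, and their part in these values was not tested.

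**Figure D4:**
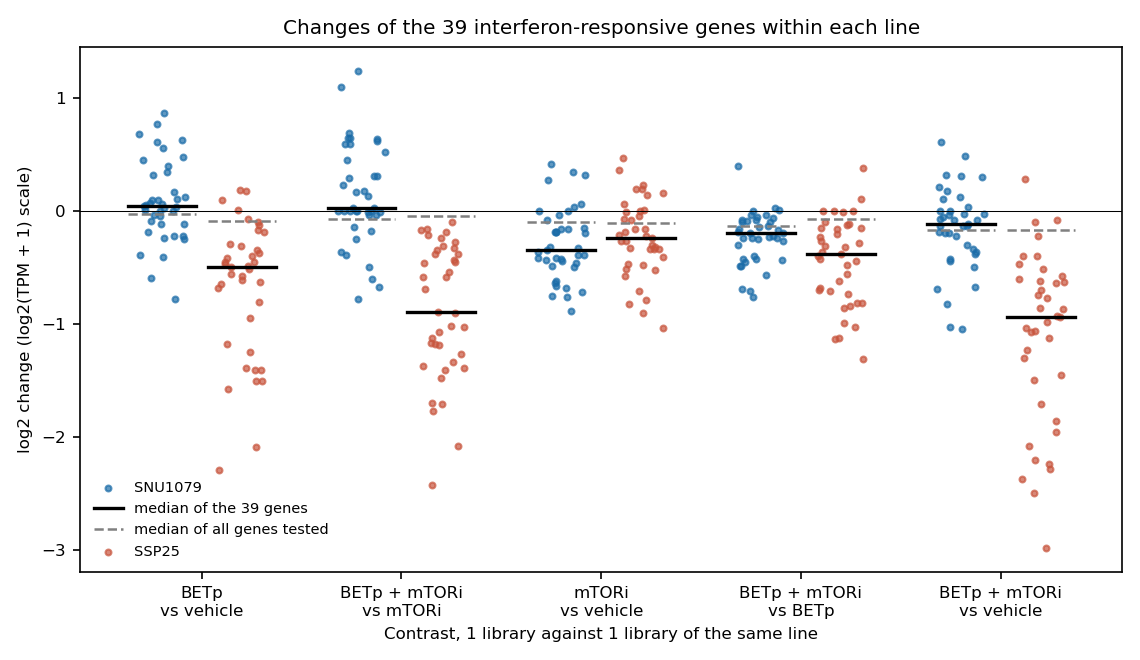
Log2 change of each of the 39 genes (points) within SNU1079 (blue) and SSP25 (red) for 5 contrasts, 1 library against 1, with the median of the members (black bar) and of all genes tested (dashed gray bar). In the contrasts that add BETp, most SSP25 points lie below 0, with medians of -0.50 and -0.89, while the SNU1079 medians are 0.04 and 0.02.

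A single member, USP18, fell with the combination in limma. It fell by 1.14 ± 0.18 against vehicle (adjusted p = 0.0438), 1 of 39 members where 1.52% of all genes were called lower, and no member was called higher (0.293%). USP18 was lower in both lines, by 1.03 on the log2 scale in SNU1079 and by 1.24 in SSP25. The call was lost under each of 12 alternatives, 8 of which left out a library, with adjusted p from 0.0523 to 1 and estimates from -1.49 to -0.95, and was kept on the genes present in both lines (0.0362). At an unadjusted p under 0.05, 15 members were lower (22.5%), and the median of all members was -0.56 (-0.19 over all genes, 0.00 after quantile normalization, which left the members at -0.39). That median was -0.26 and -0.33 without the SSP25 library with both drugs and the SSP25 vehicle library, and -0.89 without the SNU1079 library with both drugs. Next to USP18 in p, named after their values were seen, were UBE2L6 (-0.61 ± 0.16), OAS1 (-1.33 ± 0.36), IFI44L (-1.90 ± 0.54), XAF1 (-1.29 ± 0.37) and HERC6 (-0.90 ± 0.26), with limma adjusted p from 0.0868 to 0.1. XAF1 was at 0.41 TPM or less in SNU1079, so its estimate rests mostly on SSP25 (-0.50 in SNU1079 and -2.08 in SSP25). STAT2, ISG15 and IRF7 had estimates above 0, of 0.29, 0.19 and 0.19. Among the 31 other pathway genes 1 was called, TLR3, the endosomal sensor of double-stranded RNA, which fell by 1.51 ± 0.26 (limma adjusted p = 0.0465). TLR3 was at 4.45, 3.4, 2.11 and 1.51 TPM in SNU1079 and 7.54, 3.33, 3.94 and 1.28 TPM in SSP25. Its call too was lost under each of those 12 alternatives, with adjusted p from 0.0564 to 1, and kept on the genes present in both lines (0.0382).

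The drugs together did not depart from the sum of their effects in a way the test could call. No gene of 16060 was called in limma (322 had an unadjusted p under 0.05, and no member did), and the members split into 14 above and 25 below 0, with a median of -0.05 that ran from -0.37 to 0.29 with a library left out. HERC6 (-0.74 ± 0.37), OAS3 (-0.57 ± 0.42) and MX2 (-0.52 ± 0.41) had the lowest estimates and OASL (0.29 ± 0.77), IRF7 (0.27 ± 0.28) and IFI44L (0.22 ± 0.77) the highest, each with a limma adjusted p of 1. MX2 and OASL were at 0.10 TPM or less in SNU1079, so their estimates rest mostly on SSP25. The standard errors leave wide room on either side of additivity.

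The lines lay closer together in the libraries with BETp than in those without it. With vehicle, 33 of the 39 members were higher in SSP25 than in SNU1079 (49.2% of all genes), with a median gap of 1.08. With mTORi the count was 35 (47.7%) and the gap 1.29. With BETp it was 25 (46.9%) and 0.34, and with BETp + mTORi it was 22 (48.6%) and 0.26. Over the 29 present in both lines the counts in the order of treatments were 25 (51.9%), 17 (48.9%), 27 (49.9%) and 14 (51.1%), and the gaps 0.79, 0.19, 0.88 and -0.0136. These gaps share their libraries with the contrasts above and are no separate test. Averaged over the members, log2(TPM + 1) was 2.89, 2.97, 2.59 and 2.73 in SNU1079 by treatment, and 4.0, 3.32, 3.76 and 2.87 in SSP25, so with both drugs the lines reached nearly the same mean.

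Several members lie side by side in the genome, in 8 groups whose adjoining members are less than 200000 bases apart (GRCh37 positions). The IFIT genes share chr10:91043451-91181362, OAS1, OAS3 and OAS2 share chr12:113343661-113449528, and IFI44L and IFI44 share chr1:79085587-79129763. Pairs are formed by CMPK2 and RSAD2, MX2 and MX1, PARP9 and PARP14, HERC6 and HERC5, and SAMD9 and SAMD9L. Neighbors were alike in some respects, as with SAMD9 and SAMD9L, both near 0 in SNU1079, and unlike in others. OAS1 and OAS3 were at 5 TPM or more in every SNU1079 library while OAS2, beside them on the chromosome, was at 0.06 TPM or less. HERC6 was at 2.48 to 4.55 TPM in SNU1079, where HERC5 was at 0.38 TPM or less. How reads shared by such related genes were assigned is not given in the sources used here, so the split of their levels is uncertain to that extent.

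Members with and without an ISRE core match had medians of the same sign. The 15 members with it in the 250 bases upstream had a median of -0.58 for BETp against vehicle in SSP25 and 0.05 in SNU1079, and the 8 without it had -0.39 and 0.06. For BETp + mTORi against vehicle in SSP25 the medians were -1.07 and -0.87. These medians describe 23 members whose promoters were listed and carry no test.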

How the data were processed

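RNA from SNU1079 and SSP25 cells was sequenced from strand-specific dUTP libraries, and the authors deposited 1 table per line of TPM values for 56269 genes. The submitters' processing notes name DESeq2, edgeR and the genome build GRCh37. The study's methods give DESeq2 and edgeR as its tools for differential expression, whose output is not used here. The sources used here do not give the aligner, the quantifier or the read depth, so no counting interval can be stated. The deposited TPM summed to 998559 to 999362 per library. Because count models need counts, limma 3.58.1 (R 4.3.3, moderated with a mean trend) was run on log2(TPM + 1) for the 16060 genes that reached 1 TPM in 2 or more of 8 libraries, with two-sided p-values, Benjamini-Hochberg adjustment over all of them and calls at 0.05.

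The models held treatment and cell line (3 residual degrees of freedom), line with each drug present or absent (4), or line by drug (2). The pairing of libraries across treatments is the cell line, which is the block in every model. Within a line, differences are of 1 library from 1 other. The 39 members, their roles and the lists of pathway and marker genes were chosen with earlier results of these data known. Named were up to 3 members with the highest mean in each role, members called in a drug comparison, the 5 called members furthest in each direction between lines, and otherwise the 3 furthest each way in a comparison. Pathway genes named were receptors, those called and those with the highest means, and 1 pathway gene and 1 marker gene that count in their lists are not reported here by name. Alternatives were a pseudocount of 0.1, no filter, quantile normalization, no block, and each library left out, and, added after seeing the data, a fit on the 13094 genes that reached 1 TPM in both lines. The method was tested on simulated data. Promoter sequences came from RefSeq (GRCh38.p14), which listed 23 members, and gene positions from an annotation on GRCh37.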

Additional observations from a re-analysis of the deposited data

Results flagged for a closer look

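For 16 members, both libraries with BETp lay above their counterparts without it in SNU1079 and below them in SSP25. Some of the SNU1079 rises were close to 0. OAS1 rose by only 0.02 and 0.03 log2 and was thus flat there. With BETp alone LGALS3BP rose by 0.05 and IFIH1 by 0.06, and IFI44 rose by 0.02 when BETp was added to mTORi. The BETp effect in SSP25 minus that in SNU1079 was tested by limma, and in none of the 16 did it pass, so the opposite directions stand as values of these 8 libraries. On the log2 scale, with the limma adjusted p in parentheses, the difference was -1.87 for IFI44 (0.184), -1.74 for IFIT1 (0.191), -1.30 for ISG15 (0.186), -1.27 for IRF9 (0.236) and -1.24 for OAS1 (0.173). It was -1.16 for IFIT2 (0.184), -1.16 for IFIT3 (0.173), -1.02 for IFI6 (0.197), -0.95 for IFIH1 (0.235), -0.80 for PARP9 (0.205) and -0.76 for PARP14 (0.233). Values closer to 0 were -0.71 for HERC5 (0.299), which was under 1 TPM throughout SNU1079,, -0.65 for IRF1 (0.188), -0.47 for IRF7 (0.49), -0.42 for IFIT5 (0.438) and -0.28 for LGALS3BP (0.372).

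For mTORi, 3 members had opposite directions in the lines, in both contrasts that add it, a smaller share than among all genes. BST2 was higher with mTORi in SNU1079 and lower in SSP25 (2.56% of the members, 4.79% of all genes), by only 0.00457 in the second SNU1079 contrast, and STAT2 and IFI27 were the reverse (5.13% and 7.43%). The tested difference was -0.68 for BST2 (0.238), 0.57 for STAT2 (0.279) and 0.84 for IFI27 (0.254), none of which passed in limma.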

How the results depend on the processing

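Across the alternatives, the direction of the members' median held in every comparison except mTORi against vehicle and additivity, although in several it came near 0 with a library left out. The call of USP18, and so the count of members called lower, went from 1 to 0 for BETp + mTORi against vehicle and for the averaged BETp effect with a pseudocount of 0.1, with no filter, after quantile normalization, with no replicate block, and without each library in turn (0 in all), and stayed at 1 on the genes at 1 TPM in both lines. On those genes 2 in place of 4 members were called lower in SSP25, since the filter removes CMPK2 and RSAD2, and 1 in place of 0 members, BST2, for the difference between lines in the BETp effect. With no replicate block, which ignores the pairing by cell line, 0 of 16060 genes were called in these comparisons, in place of 291 and 292, and 11212 in place of 11881 for the line difference. The 291 became 86 with a pseudocount of 0.1, 2 with no filter and 21 after quantile normalization, the 292 became 202, 21 and 175, and the 168 for the averaged mTORi effect became 18, 2 and 9, and 0 with no block. On the genes at 1 TPM in both lines these 3 counts were 583, 462 and 393 of 13094 genes. The members' median for mTORi against vehicle was -0.13 after quantile normalization and -0.59 to 0.0198 with a library left out, and 0.0198 came without the SNU1079 mTORi library. For BETp + mTORi against BETp it was -0.63 to -0.00621, for the averaged mTORi effect -0.40 with a pseudocount of 0.1, -0.16 after quantile normalization and -0.42 to -0.13 with a library left out, for additivity -0.37 to 0.29, and for the difference between lines in the BETp effect -1.06 with a pseudocount of 0.1, and for that in the mTORi effect -0.0184. It was -0.45 to -0.0256 for BETp against vehicle, nearest 0 without the SSP25 vehicle library, and without the SSP25 library with both drugs it was -0.26 for BETp + mTORi against vehicle and -0.0186 against mTORi, the values furthest from 0 being -0.89 and -0.65. The cause of these shifts was not tested. The 28 members at an unadjusted p under 0.05 for the difference between lines in the BETp effect became 19 to 27, and the 16 members opposed between lines became 15 after quantile normalization and on the genes at 1 TPM in both lines.

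Signs also turned for members that no test called. CMPK2 was at -0.0788 for mTORi against vehicle, -0.0722 for the averaged mTORi effect and -1.16 for the difference between lines in the BETp effect with a pseudocount of 0.1, and at -0.0145 for the last after quantile normalization. With a library left out, BETp against vehicle ran from -0.36 to 0.77 for IFIT2 and from -0.13 to 0.77 for ISG15. mTORi against vehicle ran from -0.13 to 0.30 for CMPK2, -0.19 to 0.46 for DDX60 and -0.12 to 0.27 for MX2. BETp + mTORi against BETp ran from -0.0918 to 0.48 for IRF7, -0.44 to 0.54 for IFI27 and -1.59 to 0.0573 for IFIT1, and against mTORi from -0.33 to 1.11 for ISG15, -0.23 to 0.73 for STAT2 and -0.0199 to 0.56 for IRF7. The averaged mTORi effect ran from -0.0765 to 0.084 for CMPK2 and -0.0833 to 0.17 for IRF7, additivity from -0.34 to 1.18 for OASL, -0.50 to 0.94 for IFI44L and -0.0137 to 0.56 for IRF7, and the difference between lines in the BETp effect from -0.0717 to 0.36 for CMPK2. With 1 library per line and treatment and unknown depth, small differences of genes near 0 TPM could not be resolved.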

Other observations

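Several relays upstream of the members were also lower in the SSP25 libraries with BETp, as values from 1 library each. TMEM173 was at 30.6, 20.9, 30.2 and 10.8 TPM with vehicle, BETp, mTORi and BETp + mTORi, MB21D1 at 12.9, 9.07, 9.92 and 6.0 TPM, and IKBKE at 31.2, 18.8, 30.5 and 11.5 TPM. Each was lowest with both drugs. Other relays did not all follow, MAVS being higher with BETp in both SSP25 contrasts (0.03 and 0.16 log2) and TICAM1 and TBK1 mixed. In SSP25, 25 of the 31 pathway genes were lower with BETp than with vehicle (63.0% of all genes). When BETp was added to mTORi, 20 were lower (56.8%). SOCS1, which restrains JAK kinases, was at 0.55, 1.15, 0.57 and 1.19 TPM in SNU1079 and 5.0, 4.91, 4.02 and 1.91 TPM in SSP25. The library with both drugs was its lowest in SSP25 and its highest in SNU1079. DHX58, which encodes the RNA helicase LGP2, was at 9.27, 10.5, 8.34 and 11.2 TPM in SNU1079 and 4.67, 3.98, 7.89 and 3.07 TPM in SSP25, also highest in SNU1079 and lowest in SSP25 with both drugs. EIF2AK2, which encodes the RNA-activated kinase PKR, was at 32.8, 32.6, 38.05 and 27.9 TPM in SNU1079 and 22.5, 19.1, 13.7 and 13.2 TPM in SSP25, with the lowest SSP25 levels in the libraries with mTORi. These genes were named after their values were seen. Over the 31 pathway genes tested, BETp + mTORi against vehicle had a median log2 change of -0.39 in SSP25 and -0.22 in SNU1079, with 29 and 26 genes below 0. Over all genes the medians were -0.17 and -0.18, with 66.7% and 69.1% below 0, so the SNU1079 median of the list was close to that of all genes.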
